A study of Mus musculus with 3 samples.

Results

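Enzymes of glycolysis and the citric acid cycle were examined in the ureteric tree of the embryonic mouse kidney, the branching epithelium that gives rise to the collecting ducts. The set held 33 genes chosen by name, by a rule that uses no ratio, although earlier results of these data were known: 15 of glycolysis and lactate formation, 14 of the mitochondrial matrix and 4 cytosolic partners of mitochondrial enzymes. A gene entered the test when an array feature named for it had a value on all 3 arrays, and 17 of the 33 did, out of 3915 such genes in all. The kidneys were taken at 15.5 days post coitum from mice carrying HoxB7-GFP, a transgene whose promoter is active in the ureteric epithelium, so that green fluorescent protein marks those cells. Sorting by fluorescence gave a GFP+ and a GFP- fraction, the latter a mixture of all other kidney cells, and both came from the same transgenic line, from normal kidneys with the sexes pooled. Amplified RNA of both fractions was hybridised together on each of 3 two-channel oligonucleotide arrays, so every value is a log2 ratio, in which 1 unit is a 2-fold difference. The ratio is likely GFP+ over GFP-, since the dyes are not stated, and signs are given for that direction.

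Glycolysis breaks glucose down to pyruvate in the cytosol, and lactate dehydrogenase interconverts pyruvate and lactate. The pyruvate dehydrogenase complex instead carries pyruvate carbon into the citric acid cycle of the mitochondrial matrix, which feeds electrons to the respiratory chain. In the mouse kidney, nephron progenitors of the embryo are known for high glycolysis, and in the adult the proximal tubule relies on oxidative metabolism while the medullary collecting duct is glycolytic.

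Values were present for 5179, 4980 and 6187 gene features on arrays 1, 2 and 3. Arrays 2 and 3 resembled each other across all probes with 3 values (Pearson's r = 0.879), whereas array 1 stood apart (r = 0.0765 with array 2 and 0.274 with array 3). In a ratio, more cells of a type and more RNA per cell cannot be told apart. The sorted fractions differed in the direction of the labels: all 5 measured markers of ureteric epithelium passed the test as higher in GFP+ cells, among them Cldn7 (mean log2 ratio 2.36) and Gata3 (2.35). Called lower were 5 of 5 macrophage markers (Cd52 -2.84, Fcer1g -2.33), 3 of 3 of stroma (Mgp -2.46, Tcf21 -1.94), 2 of 3 of erythroid cells (Hba-x -2.22, Alas2 -2.15) and 3 of 5 of cap mesenchyme (Crym -1.72, Wt1 -1.42). Of 5 endothelial markers 0 passed, with 2 lower at an unadjusted p below 0.05 (Ramp2 had -0.96 and Emcn -0.48). Other endothelial markers had values on fewer arrays, namely Cdh5 with -2.08 and -1.28 on arrays 2 and 3 and Pecam1 with -1.46 on array 3. Ratios carry no level in either fraction, so a summed marker level could not be given, and the part of these other cells in the enzyme ratios was not tested.

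Of the 17 enzyme genes, Ldhb alone rose in GFP+ cells, by 1.88-fold, and 0 fell. By limma with Benjamini-Hochberg adjustment over all 3915 genes, 1.38% of genes were called higher and 1.40% lower at an adjusted p below 0.05, and a single call among 17 genes, read against these shares, sets the enzymes apart from other genes in neither direction. At an unadjusted p below 0.05 the enzyme counts were again 1 and 0, where 8.45% of all genes were higher and 6.41% lower. Means of the other 16 lay between -0.25 and 0.30, with limma adjusted p between 0.568 and 0.995. Their 95% intervals lay within 1 log2 unit of 0, a 2-fold difference either way, for 15 of the 16. Fh1 was the exception. The interval plot shows how far Ldhb stood from the rest.

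**Figure D1:**
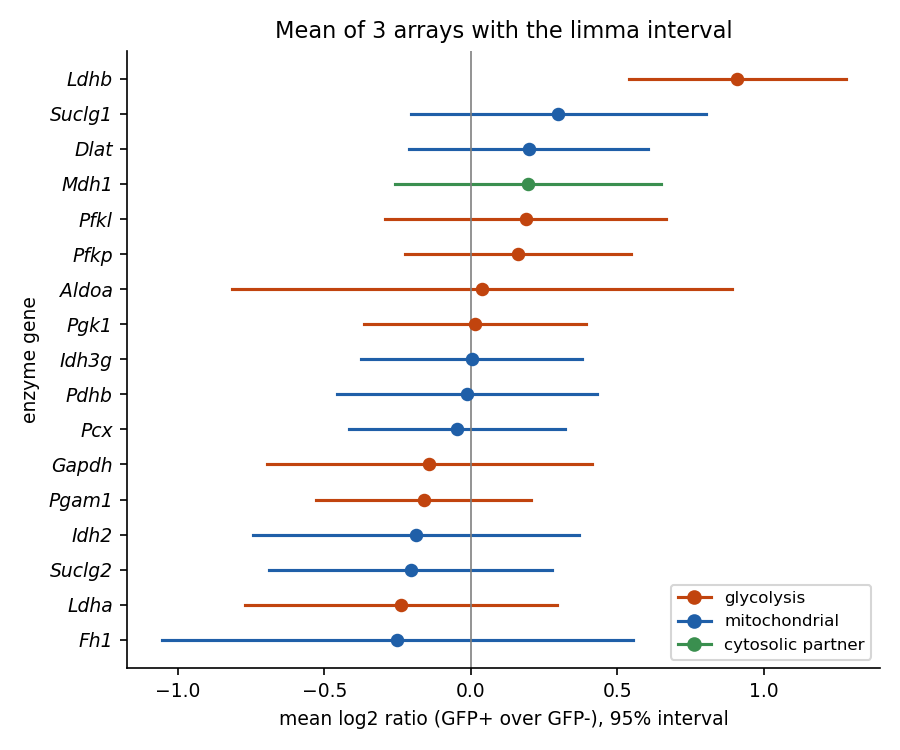
Mean log2 ratio of GFP+ over GFP- over 3 arrays (points) for the 17 enzyme genes measured on every array, with the 95% interval from limma (lines), coloured by class. Ldhb has the mean of 0.91, and the other 16 intervals include 0.

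Ldhb encodes the B (heart-type) subunit of lactate dehydrogenase, and tetramers rich in it favour the conversion of lactate to pyruvate. Its log2 ratios were 0.96, 0.84 and 0.92 on arrays 1, 2 and 3. All were positive and close together, giving a mean of 0.91 ± 0.06 (SD, n = 3 arrays; 95% interval 0.54 to 1.28; limma adjusted p = 0.0396). The gene ranked 66 of 3915 by mean ratio and stood at percentiles 96.0, 96.7 and 98.1 of the genes on the 3 arrays. The smallest mean called in either direction was 0.89 in size, so Ldhb lay just past what this test could call. It passed without array 1 (limma adjusted p = 0.00247), where 27.6% of all genes were called higher. It did not pass without array 2 (0.0694) or array 3 (0.494), nor with arrays 2 and 3 averaged to 1 replicate (0.203). Its mean was 0.88 to 0.94 in all of these settings.

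Ldha encodes the A (muscle-type) subunit, and tetramers rich in it favour lactate formation. It had -0.76, 0.17 and -0.13 on the 3 arrays, with no common sign and a mean of -0.24 ± 0.47. Within each array Ldhb exceeded Ldha, by 1.72, 0.68 and 1.04 log2 units, a mean difference of 1.15 ± 0.53. An exact two-sided sign permutation test gave p = 0.25, the smallest that 3 arrays allow (0.375 after Benjamini-Hochberg adjustment over the 3 pairs measured of 10 planned). The Ldha values differed more between arrays than those of Ldhb, and array 1 held its lowest value.

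The sequences just upstream of the starts of both genes are shown because this pair of isoenzymes parted within every array. They are the 250 bases before the start listed by RefSeq on GRCm38.p6, for Ldhb chr6:142507958-142508207 on the minus strand and for Ldha chr7:46845554-46845803 on the plus strand, read 5′ to 3′ along the gene. Capitals mark ACGTG and GCGTG on either strand, the letters at the core of the element bound by hypoxia-inducible factors, which are known to drive many glycolytic genes.
Ldhb: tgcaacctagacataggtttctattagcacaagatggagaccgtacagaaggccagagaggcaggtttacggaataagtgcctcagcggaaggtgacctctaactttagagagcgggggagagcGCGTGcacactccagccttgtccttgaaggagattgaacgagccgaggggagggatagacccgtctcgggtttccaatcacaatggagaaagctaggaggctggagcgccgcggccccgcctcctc
Ldha: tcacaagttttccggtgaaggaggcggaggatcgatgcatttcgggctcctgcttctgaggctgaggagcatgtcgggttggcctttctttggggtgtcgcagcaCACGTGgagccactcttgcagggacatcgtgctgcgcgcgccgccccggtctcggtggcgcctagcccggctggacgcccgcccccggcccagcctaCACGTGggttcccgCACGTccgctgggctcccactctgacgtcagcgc
The Ldhb window holds GCGTG once and no ACGTG, and the Ldha window holds ACGTG at 3 separate places; CACGTG, found at the first of them and again at the next, reads as ACGTG on both strands. A further start listed for Ldha has no ACGTG and 1 GCGTG. Among all 32851 listed windows of this length, 16.6% hold ACGTG and 28.2% hold GCGTG. Windows of the 17 enzyme genes held ACGTG in 9 of 21 cases and GCGTG in 11, and were richer in CpG (median 16 against 6 for all windows). A match of letters is a description of the window and not a binding site. Whether the windows bear on the ratios was not tested. The subunit pair Suclg1 and Suclg2 also parted within every array, and its sequences are not shown.

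The other glycolytic enzymes had no common direction, and array 1 opposed both other arrays in 2 of the 8 measured (Aldoa and Gapdh), beside 50.0% of all genes. Hexokinase traps glucose in the cell as glucose 6-phosphate: Hk1 had no value, and Hk2 had -0.19 on array 3 alone. For phosphofructokinase, which commits sugar phosphate to glycolysis, the liver-type Pfkl had 0.62, -0.08 and 0.02. The platelet-type Pfkp had 0.01, 0.17 and 0.31, positive on every array (mean 0.16 ± 0.15, limma adjusted p = 0.69). That mean was 0.09 without array 3, and with array weights, which favour arrays 2 and 3, it was 0.26 and passed (limma adjusted p = 0.0239). Array weights called 33.4% of all genes higher and 22% lower, and the Pfkp call is to be read beside that share. Pfkp minus Pfkl was -0.61 on array 1 against 0.24 and 0.29 on the others, so this pair had no consistent order (exact sign permutation p = 1).

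Aldoa, the aldolase that splits fructose 1,6-bisphosphate, had the widest spread of the set. It had 1.11 on array 1 against -0.64 and -0.36 on arrays 2 and 3, a mean of 0.04 ± 0.94 with a 95% interval of -0.81 to 0.89. Its gap between array 1 and the mean of the other arrays exceeded that of 97.1% of genes. Its mean turned negative once the arrays were centred (-0.01), scaled (-0.06) or quantile normalized (-0.01). Tpi1, which interconverts the resulting triose phosphates, had 0.68 on array 1 and -0.48 on array 3, with no value on array 2. It was outside the main test and was not called when genes with values on 2 arrays were admitted. Its array signs matched those of Aldoa.

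Gapdh, the glyceraldehyde 3-phosphate dehydrogenase often used as a reference gene, had -0.72, 0.23 and 0.07, a mean of -0.14 ± 0.51. Control features on the same arrays that the platform annotation names Gapdh had -0.40, 0.41 and 0.39 in one case and -0.38, 0.36 and 0.38 in the other. These features were negative on array 1 and positive on arrays 2 and 3, and with both control features included the mean was 0.04. The annotation also names Gapdh a blank, which had the reverse signs (0.17, -0.38 and -0.24), and another control with -0.24 on array 3 alone. Pgk1, the first ATP-forming enzyme of the pathway, had 0.11, -0.12 and 0.05, within a narrow range about 0 (95% interval of the mean -0.37 to 0.39). Pgam1, the phosphoglycerate mutase of the next step, had -0.15, -0.19 and -0.15. These values were among the steadiest measured, ranking 29 of 3915 by smallness of SD, yet the mean of -0.16 ± 0.02 did not pass (limma adjusted p = 0.677). Aldoc and Pkm, the pyruvate kinase, had no value on any array. No gene feature that the annotation gives to a single gene was named Gpi1 or Eno1, and neither was analysed here.

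**Figure D2:**
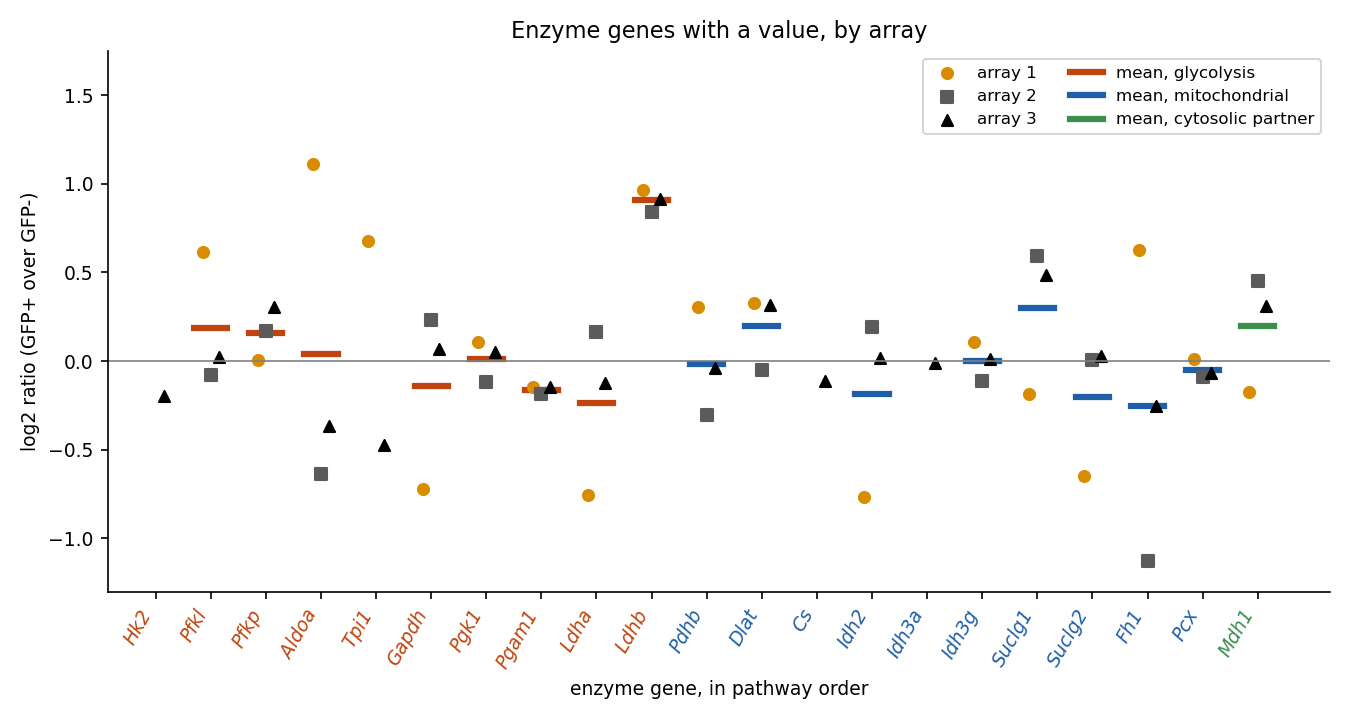
Log2 ratio of GFP+ over GFP- on each array (circle, square and triangle for arrays 1, 2 and 3) for the 21 enzyme genes with any value, in pathway order; bars are the mean over 3 arrays and colours give the class. Ldhb is near 0.9 on every array, whereas Aldoa has 1.11 on array 1 and -0.64 and -0.36 on the others.

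In the mitochondrial set, the pyruvate dehydrogenase complex was represented by its E1 beta and E2 subunits. Pdhb (E1 beta) had 0.30, -0.30 and -0.04, and Dlat (E2, the acetyltransferase core) had 0.33, -0.05 and 0.32. Neither held 1 sign on all arrays, and the mean of Dlat was 0.20 ± 0.22. Pdha1 (E1 alpha) had no value. Citrate synthase, Cs, which starts the cycle, had -0.11 on array 3 alone.

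Among isocitrate dehydrogenases, Idh2, the NADP-dependent mitochondrial enzyme, had -0.77, 0.19 and 0.02. Idh3g, a regulatory subunit of the NAD-dependent enzyme, had 0.11, -0.11 and 0.01, and its catalytic partner Idh3a had -0.01 on array 3 alone. The low value of Idh2 on array 1 lay at percentile 4.92 of that array, whereas Idh3g was near 0 throughout. Ogdh, of the 2-oxoglutarate dehydrogenase complex, had no value.

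Succinyl-CoA ligase joins a shared alpha subunit to an ATP-specific or GTP-specific beta subunit. The alpha subunit gene Suclg1 had -0.19, 0.59 and 0.49, the highest mean after Ldhb (0.30 ± 0.42, limma adjusted p = 0.568). The GTP-specific beta subunit gene Suclg2 had -0.65, 0.0043 and 0.030, with array 1 again the lowest. Suclg1 minus Suclg2 was 0.46, 0.59 and 0.46 on the 3 arrays, a mean difference of 0.50 ± 0.07. Although each gene moved between arrays, their difference did not change sign and varied little. The exact sign permutation test gave p = 0.25, the smallest that 3 arrays allow (adjusted p = 0.375). Sucla2, the ATP-specific beta subunit gene from the related citric acid cycle list, had -0.09, 0.06 and 0.28. It lay above Suclg1 on array 1 and below it on arrays 2 and 3, so that order was not constant. Suclg1 with Sucla2 was not a planned pair and was not tested.

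Fh1, fumarase, had 0.62, -1.13 and -0.25, with the widest spread after Aldoa (mean -0.25 ± 0.88, 95% interval -1.06 to 0.55). Pcx, pyruvate carboxylase, which refills the cycle with oxaloacetate, had 0.01, -0.09 and -0.06, close to 0 on every array. Mdh2, the malate dehydrogenase of the matrix, and Got2, the matrix transaminase, had no value. Mdh1, the cytosolic malate dehydrogenase of the malate-aspartate shuttle, had -0.17, 0.45 and 0.31 (mean 0.20 ± 0.33). It was the 1 cytosolic partner measured, since Idh1, Got1 and Me1 had no value.

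**Figure D3:**
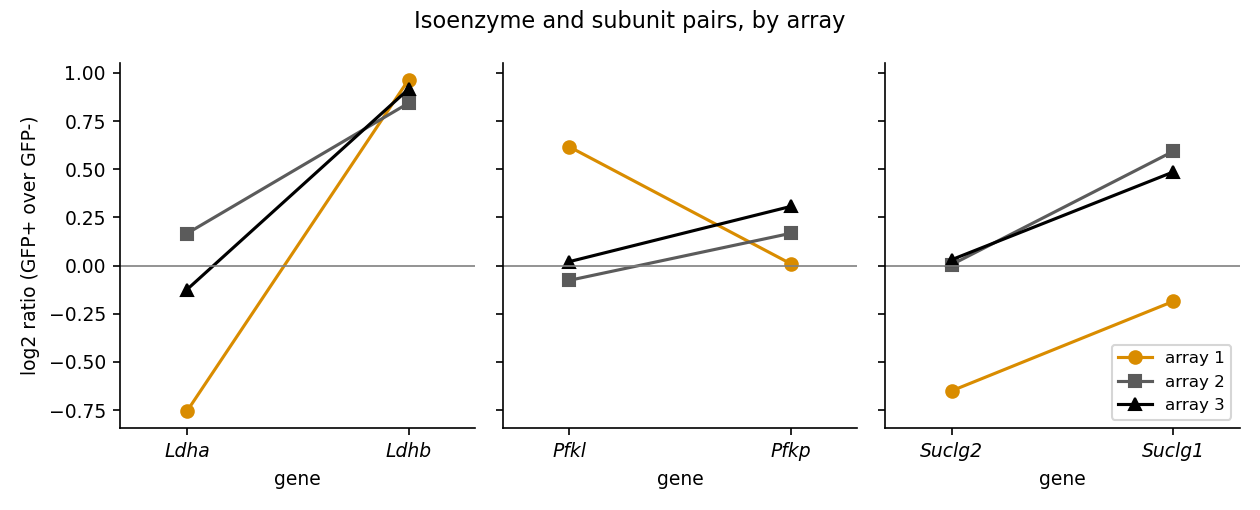
Log2 ratio of GFP+ over GFP- on each array for 3 pairs of related genes, with a line per array. Ldhb exceeds Ldha on every array and Suclg1 exceeds Suclg2 by 0.46 to 0.59, while Pfkp and Pfkl change order on array 1.

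As classes, glycolytic and mitochondrial enzymes had medians near 0. The median of the 8 glycolytic genes was 0.03 and that of the 8 mitochondrial genes -0.03, beside 0.03 for all 3915 genes. The glycolytic medians were 0.06, 0.04 and 0.03 on arrays 1, 2 and 3, and the mitochondrial medians 0.06, -0.07 and 0.01. Mitochondrial minus glycolytic medians were 0.00, -0.12 and -0.02, level on array 1 and negative on the others, with an SD of 0.06 over arrays. The difference between the medians of the means was -0.06, no larger in size than that SD. These are descriptions without a test. Means were positive for 5 of 8 glycolytic and 3 of 8 mitochondrial genes, against 54.9% of all genes. For comparison, genes of oxidative phosphorylation, the pathway downstream of the cycle, were picked by the start of their symbol, such as Nduf, Uqcr and Cox. This pick left out succinate dehydrogenase, admitted the electron carrier cytochrome c and could admit assembly factors. The 60 genes so picked and measured had a median of 0.29 (0.23, 0.30 and 0.34 on the 3 arrays). Of these, 50 had a mean above 0, limma called 0, and 9 were higher at an unadjusted p below 0.05, beside 8.45% of all genes.

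Few of the enzymes kept 1 sign across arrays. Of the 17 genes, 3 (Ldhb, Pfkp and Pgam1) had 1 sign on all 3 arrays, where 35.9% of all genes did. In 9 of 17, array 1 had the opposite sign to both other arrays, close to the background of 50.0%. Array 1 was positive and the others negative for Aldoa, Pdhb, Fh1 and Pcx, and the reverse held for Gapdh, Idh2, Suclg1, Suclg2 and Mdh1. By class, 3 of 8 glycolytic and 0 of 8 mitochondrial genes had 1 sign, and array 1 opposed the others in 2 of 8 and 6 of 8. Some of these signs rest on values near 0, such as 0.01 on array 1 for Pfkp and Pcx and 0.0043 on array 2 for Suclg2. The ratios were not centred, and the medians of all genes were -0.04, 0.09 and 0.08 on arrays 1, 2 and 3. The difference between classes was not tested. Across the 17 genes, array 1 had Pearson's r = -0.331 with array 2 and 0.0906 with array 3, and arrays 2 and 3 had r = 0.818; the genes share the same 3 hybridisations and are not independent.

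**Figure D4:**
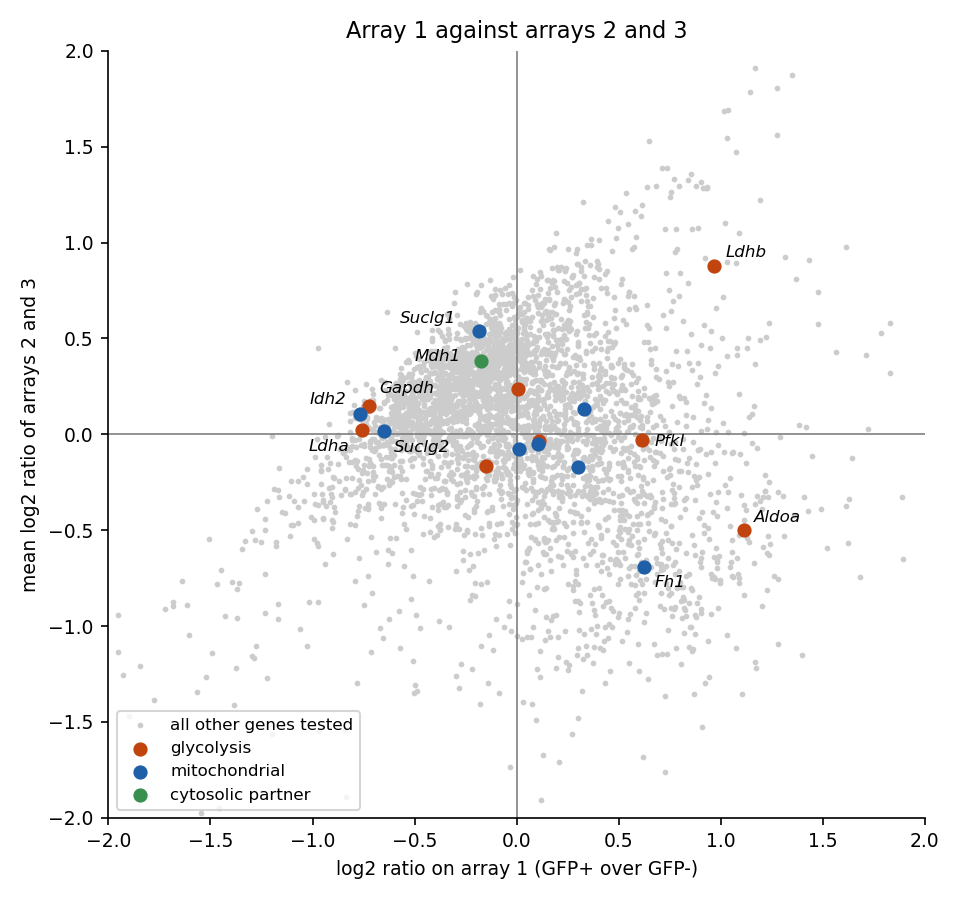
Log2 ratio on array 1 (horizontal axis) against the mean log2 ratio of arrays 2 and 3 (vertical axis) for the 17 enzyme genes, coloured by class, and all other genes tested (grey); 36 genes lie beyond 2 units on an axis and are not drawn. Ldhb lies high on both axes, while Aldoa and Fh1 lie to the lower right and Idh2, Gapdh and Ldha to the left.

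Without array 1, limma called 27.6% of all genes higher and 18.9% lower. Among the enzymes, 3 were then higher (Ldhb 0.88, Suclg1 0.54 and Mdh1 0.38) and 2 lower (Aldoa -0.50 and Fh1 -0.69), fewer than those shares of 17 genes. The 2 arrays left resemble each other far more than array 1 resembles either, and the cause of that was not tested.

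Among other genes of these pathways, limma called 0 in either direction in any of 6 lists, which at 1.38% and 1.40% of all genes is near the background for lists of this size. Outside the hypoxia list 0 reached an unadjusted p below 0.05. In the citric acid cycle list, 12 of 21 genes were measured, with a median of 0.08 and 9 positive means. The members of largest mean were Sdhaf1 (0.31 ± 0.36), an assembly factor of succinate dehydrogenase, the 2-oxoglutarate and malate carrier Slc25a11 (-0.31 ± 1.06), Dlst (0.28 ± 0.17), the E2 subunit of the 2-oxoglutarate dehydrogenase complex, and Sdha (0.25 ± 0.20), the flavoprotein of succinate dehydrogenase. Slc25a11 had 0.90, -1.08 and -0.74, the array order seen for Aldoa and Fh1. Sdha and Dlst were positive on all arrays, at 0.05, 0.44 and 0.27 and at 0.09, 0.43 and 0.33.

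All 4 measured genes for pyruvate import or for control of the pyruvate dehydrogenase complex were negative on array 1 and positive on arrays 2 and 3. They were the dehydrogenase kinases Pdk3 (mean 0.16 ± 0.30) and Pdk4 (0.16 ± 0.40), which inhibit the complex, the phosphatase Pdp2 (0.06 ± 0.34), which activates it, and the pyruvate carrier subunit Mpc1 (0.16 ± 0.41). Kinases and phosphatase, which act in opposite directions, therefore had the same array pattern, in which array 1 opposed the others as it did for 50.0% of all genes. The 3 measured genes of the pentose phosphate pathway, which branches from glycolysis to make NADPH and ribose, had the reverse. Taldo1 had 0.63, -0.90 and -0.42 (mean -0.23 ± 0.78), Pgls 0.60, -1.08 and -0.16 (-0.22 ± 0.84) and Rpia 0.40, -0.30 and -0.19 (-0.03 ± 0.37). Their medians were 0.60, -0.90 and -0.19 on arrays 1, 2 and 3.

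Of the other glycolytic genes listed, 1 of 27 had 3 values: Bpgm, which makes 2,3-bisphosphoglycerate (0.12 ± 0.43). In gluconeogenesis, G6pc3, a glucose 6-phosphatase (0.23 ± 0.17), and Fbp2, a fructose bisphosphatase (0.15 ± 0.30), were measured of 6 listed. Among genes outside glycolysis that hypoxia is known to induce, 7 of 16 were measured, with a median of 0.21. Bnip3, a mitophagy receptor, had 1.08, 0.35 and 0.48 (mean 0.64 ± 0.39, limma adjusted p = 0.224), and Higd1a, a small mitochondrial protein, 0.79, 0.50 and 0.21 (0.50 ± 0.29, 0.276). Both were positive on every array, whereas Bnip3l, a relative of Bnip3 needed for mitochondrial clearance in maturing red cells, was negative on all (-0.14, -0.88 and -0.67; mean -0.56 ± 0.38, 0.267). Ndrg1, a stress-responsive gene, had a mean of 0.31 ± 0.36. At an unadjusted p below 0.05 this list had 2 genes higher and 1 lower, where 8.45% and 6.41% of all genes did.

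**Figure D5:**
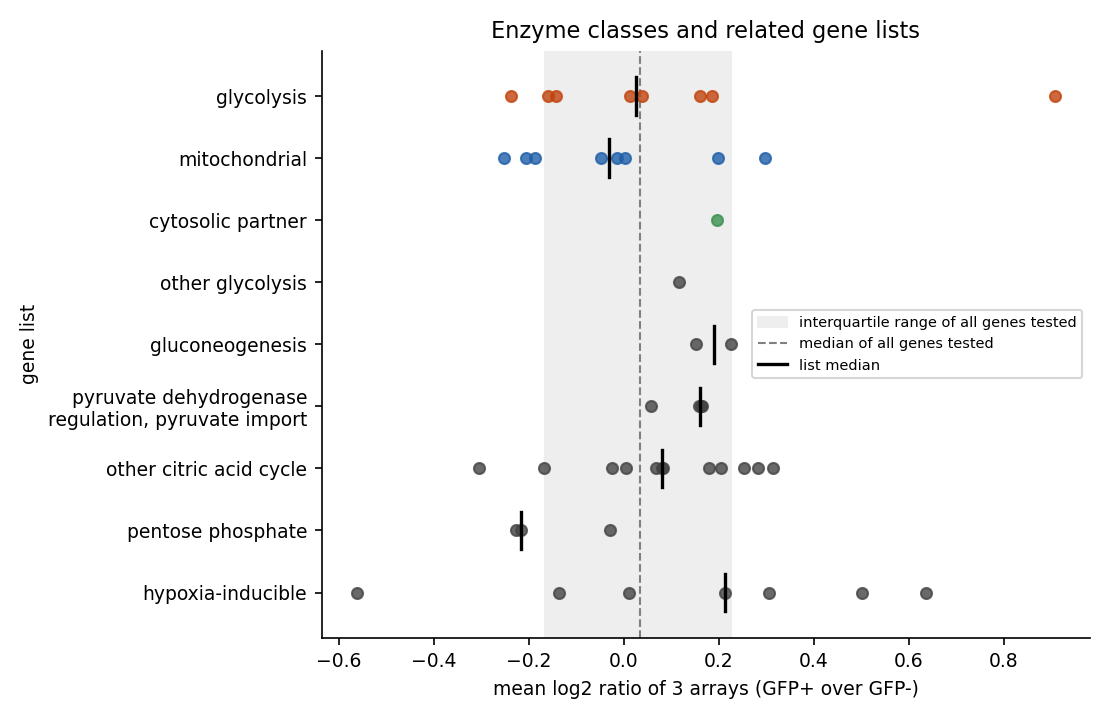
Mean log2 ratio of GFP+ over GFP- over 3 arrays for each measured gene of the 3 enzyme classes (coloured) and of 6 related lists (dark grey), with list medians (black bars) and the median and interquartile range of all genes tested (dashed line and shading). Ldhb, at 0.91, is the farthest point to the right, and the glycolytic and mitochondrial medians lie near the median of all genes.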

How the data were processed

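Each array compared RNA of GFP+ and GFP- cells in its 2 channels. Per the labels, images were read with Imagene 5.5, the control channel was normalized by Lowess with 20% of the data in each fit, and its values had a floor of 10, which limits the ratio of genes faint in that channel. The titles call the values filtered, by a rule not stated in the labels. The authors deposited log2 ratios: 2 raised to the value was a whole number of thousandths, within 0.01, for 99.97% of values. No raw intensities were analysed here, and depth does not apply; the number of arrays limits the precision.

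Of 22702 features, 21819 were gene features, and 4399 had values on all 3 arrays. Probes were named from the platform annotation, with symbols updated through gene identifiers to RefSeq (GRCm38.p6); probes with several genes or none were left out, and a gene's probes were averaged, giving 3915 genes. Control and blank features were left out, although the annotation names 597 features Gapdh, of which 1 is a gene feature. For every gene, lmFit and eBayes of limma 3.58.1 (R 4.3.3) gave a two-sided test of a mean of 0, with Benjamini-Hochberg adjustment over all genes, with a threshold of 0.05. On simulated data of 3915 genes with 200 changed, the test found 57.8% of changes of log2 1 and 97% of log2 2, and 5.49% of calls were false; array 1 stands apart from the others, which the simulation does not cover.

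The 3 arrays form 1 group. The labels do not say whether they came from separate kidneys, so a p-value reflects the variation among these hybridisations alone, possibly technical. Per the labels there was no dye swap, so a dye effect of a gene cannot be told apart from a difference between cells. Errors are SDs over arrays. Members and lists were chosen with earlier results of these data known. Named were all members, and of each other list those past the threshold and the 4 of largest absolute mean (2 for marker lists). Sucla2 was named in addition, as the other beta subunit of succinyl-CoA ligase. Alternatives covered scaling, arrays left out or averaged, array weights (gene-by-gene method), the statistic, the filter, symbols and probes. Inclusion of Gapdh control features was added after seeing the data. Sequences are from RefSeq.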

Additional observations from a re-analysis of the deposited data

Results flagged for a closer look

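Features outside the genes tested held values. A pair of control features that the annotation names Gapdh had means of 0.134 and 0.119 over 3 arrays, of opposite sign to the Gapdh gene feature (-0.14), with SDs of 0.459 and 0.433. On each array, though, both had the sign of the gene feature, negative on array 1 and positive on arrays 2 and 3. A blank feature, which the annotation also names Gapdh, had 0.17, -0.38 and -0.24 on arrays 1, 2 and 3, a mean of -0.148. These values stand out because a feature labelled blank kept a value on every array after the authors' filter. Several enzyme genes had means no larger than this one.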

How the results depend on the processing

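Ldhb kept a positive mean under all 14 alternatives and stayed past the threshold in 10, some of which could hardly change its result. With 1 gene feature for it, its ratio was unchanged by the settings for symbols, probes, the filter and Gapdh control features. Its calls without array 1 and with array weights came where 27.6% and 33.4% of all genes were called higher. Ldhb missed the threshold without array 2 or 3, with arrays 2 and 3 averaged, and by an ordinary one-sample statistic (adjusted p = 0.183). The count of enzymes called higher was then 0, and the ordinary statistic called 1 gene higher and 0 lower in all (284 and 187 at an unadjusted p below 0.05). With arrays left out in turn, 0 to 3 enzymes were higher and 0 to 2 lower, beside 23 to 1080 and 51 to 738 of all genes. Array weights (0.15, 1.55 and 4.31 for arrays 1, 2 and 3) gave 4 (Ldhb, Mdh1, Pfkp and Suclg1) and 2 enzymes (Aldoa and Fh1), beside 1309 and 861 genes. Averaging arrays 2 and 3 gave 29 genes higher, and quantile normalization 84 lower. The glycolytic median, 0.025, became -0.017 after centring, -0.044 after scaling, 0.0013 after quantile normalization and 0.080 with arrays 2 and 3 averaged. It ranged from -0.0040 to 0.119 with arrays left out, and the mitochondrial median from -0.021 to 0.096.

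Of 238 enzyme values under alternatives, 201 kept sign and call. With the sign kept, 7 gained a call and 4 lost it. The other 26 changed sign, over 10 of the 17 genes, and the cause was not tested. Among these 26, Aldoa also gained a call, as lower, both without array 1 and with array weights. Signs changed after centring and scaling for Aldoa (-0.0054 and -0.057), Pgk1 (-0.029 and -0.031) and Idh3g (-0.040 and -0.045), and after quantile normalization for Aldoa (-0.012). Array weights gave -0.40 for Aldoa, 0.090 for Gapdh, 0.042 for Idh2, -0.017 for Idh3g and 0.0064 for Suclg2. Averaging arrays 2 and 3 gave 0.065 for Pdhb, and control features gave 0.037 for Gapdh. With arrays left out, the mean ranged for Pfkl from -0.028 to 0.32, Aldoa from -0.50 to 0.37, Gapdh from -0.33 to 0.15, Pgk1 from -0.035 to 0.080, Ldha from -0.44 to 0.021, Pdhb from -0.17 to 0.13, Idh2 from -0.38 to 0.10, Idh3g from -0.049 to 0.060, Suclg2 from -0.32 to 0.017 and Fh1 from -0.69 to 0.19. No paired analysis was possible because the arrays form 1 group with no replicate number shared with another; each ratio already sets both fractions side by side within an array. Signal over background could not be examined without intensities.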

Other observations

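Some genes of these pathways had values on fewer than 3 arrays and were outside the main test. Those with values on 2 arrays entered only the alternative filter, and their results there are not given. All are named after their values were seen. Slc16a1, a monocarboxylate transporter that carries lactate and pyruvate across the cell membrane, had -0.72 and -0.81 on arrays 2 and 3. P4ha1, a subunit of the collagen prolyl hydroxylase induced by hypoxia, had -1.29 on array 3, whereas Ddit4, a stress-induced inhibitor of mTOR signalling from the same list, had 0.43 on that array. Slc25a10, the dicarboxylate carrier, had 0.25 and 0.40 on arrays 2 and 3. Pgm1, a phosphoglucomutase, had 0.02 and 0.32 on the same arrays. Pfkfb3, which sets the level of the phosphofructokinase activator, had -0.18 on array 1 and 0.31 on array 3, and the aspartate-glutamate carrier Slc25a12 had -0.40 on array 1 and 0.29 on array 2, so both were negative on array 1 and positive on the other array measured. On array 3 alone, Pck1 of gluconeogenesis had 0.29, the phosphoglucomutase Pgm2 -0.19, and Dld, the E3 subunit shared by the pyruvate and 2-oxoglutarate dehydrogenase complexes, -0.07.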
